A study of Saccharomyces cerevisiae with 16 samples.

Results

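Of 6255 probes on a yeast expression array, 74 stayed near their starting level on average for the first 8 h of a phosphate experiment and then stood at least 8-fold higher at 23 h in both strains studied. These 74 probes were chosen by measured values, as follows. For each probe and strain, the change at a time was its log2 value minus the mean of the Cy3 pair at 0 h (replicates 1 and 2). A member needed a value in all 16 samples, a mean change over 1, 5 and 8 h between -0.25 and 0.25 in both strains, a change of at least 3 at 23 h in both, and 23 h changes that differed between the strains by at most 1.25. Of the 6255 probes, 5787 had all values, 2778 of these met the early condition, 231 met the 23 h condition, 79 met both, and the limit on the strain difference removed 5.

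The strains of Saccharomyces cerevisiae were PHO84c, whose phenotype the labels give as abundant PHO84c, and a wild type (WT). How the PHO84c strain was made is not given in the sources used here, and no probe was listed under PHO84, so the strain label was not checked on the array. Cells of both strains left logarithmic growth in synthetic complete medium, were washed, and were diluted into the same medium with an intermediate phosphate level of 500 µM. Each strain had 1 sample at 1, 5, 8 and 23 h and 4 samples at 0 h, taken from both dyes of 2 arrays, and no culture at another phosphate level was set beside them. Phosphate, growth and time in culture thus cannot be told apart. Tests on all 16 samples take the spread of the single later samples from the samples at 0 h. Tests on the 6 samples at 1, 5 and 8 h alone take it from how the strains differ across those times.

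When phosphate runs short, budding yeast activates the transcription factor Pho4, which raises phosphate transporters, secreted phosphatases and polyphosphate synthesis. A culture that fills its medium also passes from fermentation through the diauxic shift into stationary phase, with wide changes in metabolism, ribosome production and stress defence. Pho84 is the main high-affinity phosphate importer of the plasma membrane. The question for these probes was whether any single early time already showed the late rise, and in which strain.

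Only 20 of the 74 members carry a gene name in the array's annotation, and the other 54 are unnamed here. Across the table, 1608 probes have a listed name. The names need care, because probes listed under related names did not move together. A member listed as FDH2 stood at 3.57 in PHO84c and 3.26 in WT at 23 h, while another probe listed as FDH2 stood at -2.76 and -2.29. Probes listed under cytosolic ribosomal protein names, a group of genes that usually moves as one, had an SD of 1.66 in PHO84c and 1.53 in WT for the 23 h change, against 1.68 and 1.54 over all probes. A gene name below therefore stands for the probe listed under it, and the role given with it is background on that gene.

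At 23 h the members stood between 3.01 and 9.18 in PHO84c, with a median of 4.14, and between 3.02 and 8.37 in WT, with a median of 3.90. These values chose the members and are given as a description. At 0 h the 4 samples of the same probes lay between -0.22 and 0.20 in PHO84c and between -0.34 and 0.48 in WT. The median SD over the 4 samples was 0.0648 in PHO84c and 0.0809 in WT, against 0.0606 and 0.0718 over all complete probes. These samples share arrays and appear to be scaled on themselves within a dye, so the SD is not that of 4 independent samples. Over all probes tested at 23 h, limma called 23.2% higher in PHO84c and 20.8% in WT (adjusted p under 0.05 and at least 2-fold). All 74 members were among them in both strains, from which nothing is read, since the selection asked for a larger change than the call. A change of at least 5 was seen for 20 members in PHO84c and 17 in WT.

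**Figure D1:**
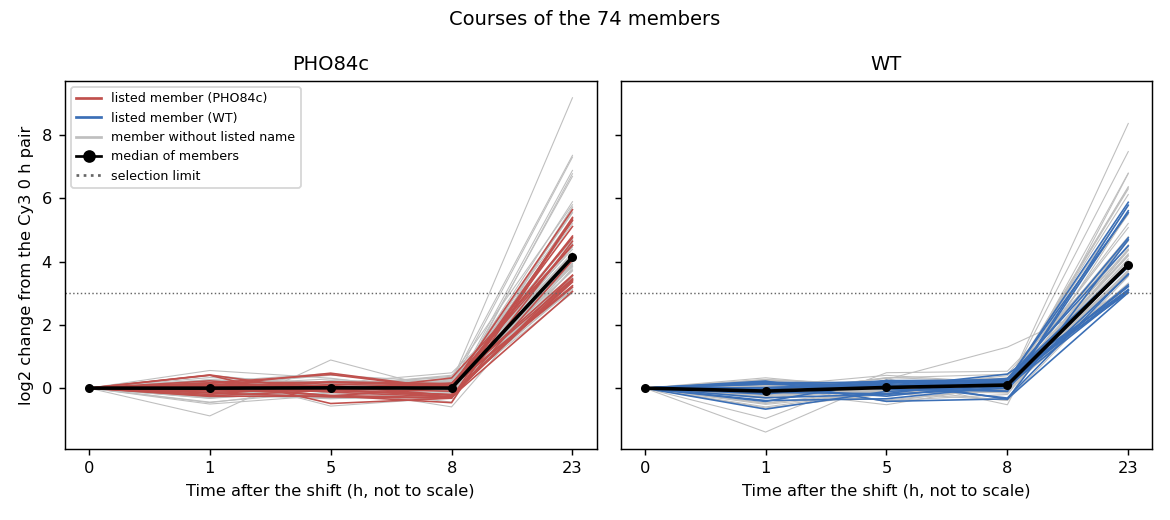
Course of each of the 74 members in PHO84c (left) and WT (right), as the log2 change from the Cy3 pair at 0 h against time in h (spacing not to scale). Coloured lines are the 20 members with a listed name, grey lines the other 54, black points the median of members, and the dotted line the selection limit of 3. Medians stay within 0.1 of 0 up to 8 h and stand at 4.14 in PHO84c and 3.90 in WT at 23 h.

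The largest late values belonged to unnamed probes. Probe 2468 stood at 0.07, 0.41, 0.19 and 9.18 in PHO84c and at 0.26, -0.43, 0.07 and 8.37 in WT at 1, 5, 8 and 23 h, which makes the last values 580.5-fold and 330.5-fold the 0 h level. Probe 9319 stood at 0.18, 0.10, -0.21 and 6.69 in PHO84c and at 0.20, 0.06, 0.09 and 7.48 in WT. Neither showed an early value on the scale of its late one. The first 10 members by mean 23 h change were all unnamed, and the 11th was the probe listed as PAU6.

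Among the listed members, 2 carry names of large ribosomal subunit assembly. RPF1 is a nucleolar protein with a Brix domain. Its probe stood at -0.13, -0.03, -0.10 and 5.30 in PHO84c and at -0.03, 0.24, 0.25 and 5.55 in WT at 1, 5, 8 and 23 h. NIP7, also nucleolar, is needed for maturation of the large subunit, and its probe stood at -0.26, -0.25, 0.04 and 5.64 in PHO84c and at -0.42, 0.24, -0.35 and 4.69 in WT. The probe of RPS23A, a small-subunit ribosomal protein with a near-identical copy in the genome, stood at 0.00, -0.23, -0.31 and 4.04 in PHO84c and at -0.14, -0.18, 0.31 and 3.02 in WT. Of these 3 probes, RPF1 was nearly level between the strains at 23 h, while NIP7 and RPS23A were higher in PHO84c by 0.95 and 1.02.

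A probe listed as GIM4, a subunit of the prefoldin complex that hands unfolded actin and tubulin to the chaperonin, stood at 0.16, 0.43, -0.03 and 5.11 in PHO84c and at -0.12, 0.09, -0.10 and 5.61 in WT. Names of chromatin and transcription were NGG1, a subunit of the SAGA histone acetyltransferase complex, and AOR1, now called SWC5, a subunit of the SWR1 complex that exchanges histone H2A for its variant. The NGG1 probe stood at 0.05, 0.20, 0.14 and 4.52 in PHO84c and at 0.18, 0.16, 0.29 and 4.50 in WT. The AOR1 probe stood at -0.09, -0.07, -0.21 and 3.45 in PHO84c and at -0.13, 0.03, 0.44 and 3.10 in WT. NGG1 had nearly equal late values in the strains and was above 0 at all 3 early times in both. The AOR1 probe had the widest 0 h spread of the listed members, at 0.48, -0.34, 0.04 and -0.03 in the 4 WT samples. Its WT change of 0.44 at 8 h is measured from the mean of the first 2 of these, which lay far apart.

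Cell-cycle and ubiquitin names were CLB3, a B-type cyclin, and DIA2, an F-box protein of an SCF ubiquitin ligase. The CLB3 probe stood at -0.04, 0.18, 0.08 and 3.24 in PHO84c and at -0.67, -0.10, 0.04 and 3.88 in WT. The DIA2 probe stood at 0.17, 0.18, 0.11 and 4.75 in PHO84c and at -0.00, 0.05, 0.21 and 3.89 in WT. CLB3 had the lowest single early value of any listed member, in WT at 1 h. DIA2 and FDH2 were the listed members with all 6 early values within 0.25 of 0. RUD3, a Golgi matrix protein, had a probe at 0.42, -0.11, 0.32 and 4.52 in PHO84c and at -0.11, 0.05, 0.22 and 3.83 in WT.

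Metabolic names formed the largest group. ADH1 is the alcohol dehydrogenase that makes ethanol during fermentation, and its probe stood at -0.15, -0.28, -0.32 and 4.64 in PHO84c and at 0.12, 0.02, 0.19 and 4.75 in WT. EPT1 encodes an ethanolaminephosphotransferase that makes phosphatidylethanolamine. Its probe stood at 0.10, -0.24, -0.46 and 5.35 in PHO84c and at 0.19, -0.03, -0.10 and 5.78 in WT. The probe of ERG8, the phosphomevalonate kinase of sterol synthesis, stood at 0.23, -0.08, -0.20 and 3.36 in PHO84c and at 0.22, -0.42, -0.34 and 3.02 in WT. The values of EPT1 and ERG8 at 8 h were below those at 1 h in both strains, as were those of SMF3, given below.

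COX8 is a subunit of cytochrome c oxidase in the respiratory chain. Its probe stood at -0.20, 0.12, 0.06 and 3.19 in PHO84c and at -0.39, -0.34, 0.06 and 3.08 in WT. FDH2 names a formate dehydrogenase, and its member probe stood at -0.24, -0.07, 0.15 and 3.57 in PHO84c and at 0.13, 0.21, 0.12 and 3.26 in WT. The probe listed as FDH1, a near-identical gene, stood at 1.61 in PHO84c and 1.94 in WT at 23 h. RMA1 resembles folylpolyglutamate synthases, and its probe stood at 0.13, -0.13, -0.28 and 3.06 in PHO84c and at 0.01, -0.25, 0.16 and 3.12 in WT. PMU1 resembles phosphomutases, with a probe at 0.11, 0.09, -0.23 and 3.40 in PHO84c and at 0.01, 0.15, 0.25 and 3.21 in WT. These 4 lay near the lower end of the members at 23 h, in both strains.

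The remaining names belong to transport, the cell surface and redox defence. SMF3 is an iron transporter of the vacuole, and its probe stood at 0.06, -0.04, -0.27 and 3.56 in PHO84c and at 0.01, 0.12, -0.31 and 3.61 in WT. AZR1, a plasma membrane transporter linked to azole resistance, had a probe at 0.11, -0.06, 0.16 and 3.45 in PHO84c and at -0.30, -0.20, -0.01 and 3.59 in WT. Both ended almost level in the strains. PAU6 belongs to the seripauperins, a family of near-identical cell wall proteins, so its probe may read several members. It stood at 0.41, -0.49, -0.32 and 5.40 in PHO84c and at -0.19, 0.22, 0.21 and 5.88 in WT. DOT5, a nuclear thiol peroxidase, had a probe at 0.08, 0.47, -0.02 and 4.81 in PHO84c and at 0.16, 0.08, 0.29 and 3.91 in WT. The PAU6 probe ran in opposite directions in the strains between 1 and 8 h, yet ended as the highest listed member in WT.

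**Figure D2:**
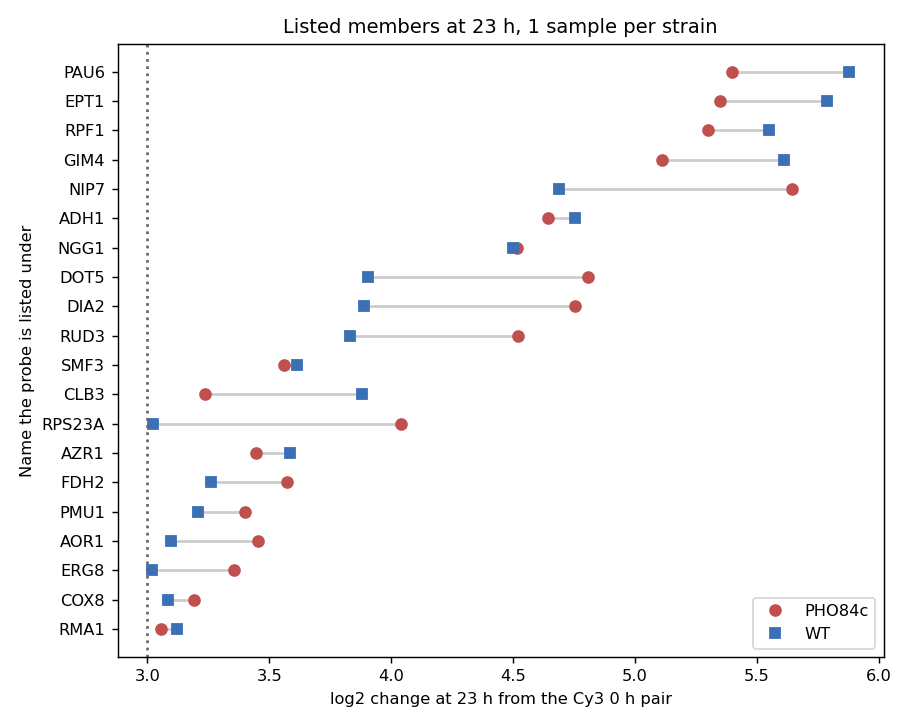
Log2 change at 23 h from the Cy3 pair at 0 h for the 20 members with a listed name, ordered by the mean of both strains; circles are PHO84c, squares WT, 1 sample each, and the dotted line is the selection limit of 3. Of the 20, 11 were higher in PHO84c and 9 in WT, with the widest gap at RPS23A.

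The 23 h change was higher in PHO84c for 42 of the 74 members, and the strain difference ran from -0.78 to 1.06 with a median of 0.11. Its width is set by the rule. Across the 74 members the 23 h changes of both strains correlated at a Pearson r of 0.914 and a Spearman rho of 0.846. This is a description over probes that share the same arrays, and both values were limited by the selection. At the limits, the listed probes closest inside were ERG8 (3.02 in WT at 23 h), ADH1 (early mean of -0.25 in PHO84c) and RPS23A (strain difference of 1.02). Just outside lay BUD16, at 3.15 in PHO84c and 2.88 in WT at 23 h, and COX2, with early means of -0.17 in PHO84c and -0.25 in WT, the second just beyond the limit.

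A mean near 0 over 3 times need not mean 3 values near 0, and for most members it did not. All 6 early changes lay within 0.25 of 0 for 13 of the 74 members, within 0.5 for 62 and within 1 for 73. In PHO84c the early changes ran from -0.88 to 0.56 at 1 h, from -0.57 to 0.89 at 5 h and from -0.59 to 0.48 at 8 h. In WT they ran from -1.39 to 0.33 at 1 h, from -0.53 to 0.49 at 5 h and from -0.53 to 1.30 at 8 h. The lowest and the highest of all these values came from a single unnamed probe, 7555, in WT.

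The medians at 1, 5 and 8 h were -0.00, 0.01 and 0.00 in PHO84c, and -0.09, 0.02 and 0.10 in WT. In PHO84c 37, 39 and 37 of the 74 members stood above 0 at the 3 times. In WT 26, 39 and 53 did. The mean of these changes was limited by the selection, so the levels are given as a description. By the limma fit on all 16 samples, 0 of 74 members were called at 1, 5 or 8 h in PHO84c, where 2.92%, 1.59% and 1.06% of all probes were called in either direction. At an unadjusted p under 0.05 there were 16, 9 and 8 members in PHO84c (21.6%, 12.2% and 10.8%), against 44.5%, 36.3% and 28.7% of all probes. In WT the only calls were those of probe 7555, lower at 1 h and higher at 8 h, where 4.03%, 2.24% and 2.04% of all probes were called at 1, 5 and 8 h. At an unadjusted p under 0.05 there were 15, 9 and 18 members in WT (20.3%, 12.2% and 24.3%), against 38.6%, 34.8% and 32.0% of all probes. Of these, 2 of 15 were above 0 at 1 h, 5 of 9 at 5 h and 14 of 18 at 8 h.

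**Figure D3:**
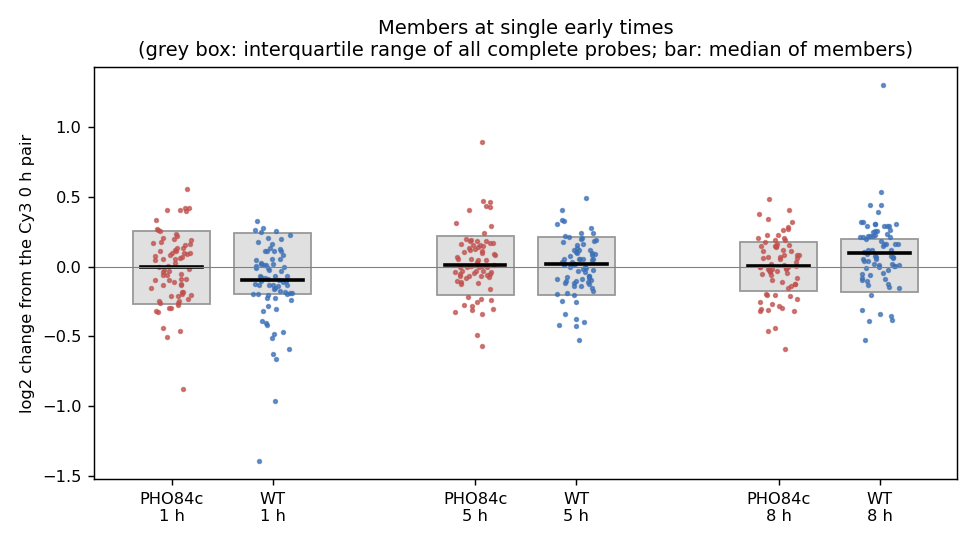
Log2 change of each of the 74 members from the Cy3 pair at 0 h, at 1, 5 and 8 h, with PHO84c to the left of WT at each time. Points are members, black bars their medians, and grey boxes the interquartile range of all 5787 complete probes. The WT median moves from -0.09 at 1 h to 0.10 at 8 h, and the PHO84c median stays at 0.00 to 0.01.

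The difference between 2 early times comes from samples that also form the early mean, but the rule sets no direct condition on it, and neither the 0 h nor the 23 h samples enter it. The limit on the early mean narrows it all the same. From 1 to 8 h its SD was 0.40 in PHO84c and 0.36 in WT over all complete probes. Over the 2778 probes within the early limit it was 0.34 and 0.28. Called and unadjusted p shares for early differences below stand beside all probes, a wider set, and nothing is read from that comparison. From 1 to 8 h, 38 of 74 members moved up in PHO84c (51.4%) and 56 of 74 in WT (75.7%). Over all 5787 complete probes, 52.4% moved up in PHO84c and 47.8% in WT. Over the 2778 probes within the early limit, 51.1% and 47.0% did. The median 8 h minus 1 h difference of the members was 0.03 in PHO84c (interquartile range -0.21 to 0.25) and 0.19 in WT (0.01 to 0.35), against 0.02 and -0.01 over all complete probes. The members thus leaned upward in WT, by far less than their later rise. The median was 0.02 in PHO84c and 0.10 in WT for 5 h minus 1 h, and -0.01 in PHO84c and 0.10 in WT for 8 h minus 5 h. Among the 13 members with all 6 early changes within 0.25 of 0, the median 8 h minus 1 h was 0.0938 in PHO84c and 0.0127 in WT. Among the 63 probes selected without 0 h replicate 2 it was 0.11 in PHO84c and 0.19 in WT, a narrower gap between the strains, and 55.6% moved up in PHO84c and 71.4% in WT.

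The order of the 3 early times was also counted. It was not counted over the probes within the early limit, so the shares stand beside all complete probes, a wider set. In PHO84c the highest of the 3 early values was that at 1 h for 27 members, at 5 h for 22 and at 8 h for 25 (33.8%, against 38.7% of all complete probes). In WT it was that at 1 h for 13, at 5 h for 20 and at 8 h for 41 (55.4%, against 28.4%). Values were in ascending order over 1, 5 and 8 h for 18 members in PHO84c (24.3%, against 27.1% of all complete probes) and 25 in WT (33.8%, against 16.1%). They were in descending order for 16 in PHO84c (21.6%, against 24.3%) and 4 in WT (5.41%, against 15.7%). Of the 20 listed members, 7 moved up from 1 to 8 h in PHO84c and 16 in WT.

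Tested probe by probe with both strains as replicates (limma on the 6 samples at 1, 5 and 8 h, with strain and time as terms), 0 of the 74 members were called for 8 h minus 1 h, 5 h minus 1 h or 8 h minus 5 h. Over all 6014 probes tested, 0.283%, 0.0499% and 0.0333% were called. At an unadjusted p under 0.05 the members numbered 14, 7 and 1, or 18.9%, 9.46% and 1.35%, beside 13.7%, 11.3% and 5.15% of all probes. Of the 14 for 8 h minus 1 h, 11 were higher at 8 h and 3 lower, beside 406 and 415 over all probes. ERG8 was among the 3, at -0.50 ± 0.149 (SE, limma adjusted p = 0.258), and so was EPT1 at -0.43 ± 0.144 (adjusted p = 0.298). The lowest adjusted p of any member was 0.114. At each time the array block number was the same in both strains (4, 3 and 6 at 1, 5 and 8 h). Time and block number thus cannot be told apart.

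Within the single strains, the 16-sample limma fit takes its spread from the 0 h samples. It called 0 members for 8 h minus 1 h in PHO84c and 2 in WT, where 2.11% and 1.96% of all probes were called. At an unadjusted p under 0.05 there were 20 members in PHO84c (27.0%, against 35.6% of all probes) and 22 in WT (29.7%, against 23.8%). In PHO84c 11 of these members were higher at 8 h and 9 lower, beside 1079 and 1098 over all probes. In WT 18 were higher and 4 lower, beside 677 and 798. Both called probes were unnamed, probe 10621 and probe 7555, and they are named here after their values were seen. Probe 10621 stood at -0.06, -0.27, -0.02 and 4.79 in PHO84c and at -0.96, 0.49, 0.53 and 4.47 in WT at 1, 5, 8 and 23 h. Probe 7555 stood at -0.88, 0.89, -0.12 and 3.17 in PHO84c and at -1.39, 0.27, 1.30 and 3.06 in WT. Both began low at 1 h in WT and were above 0 by 5 h, so that their early mean lay near 0.

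**Figure D4:**
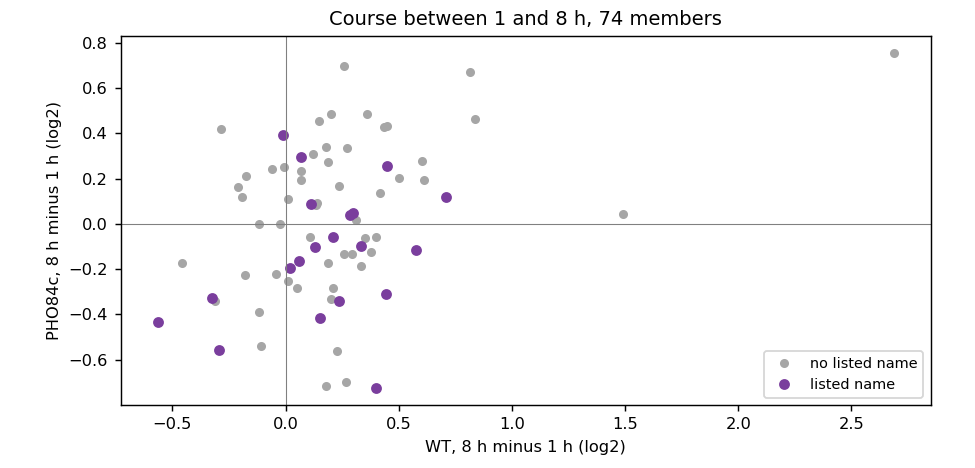
Log2 difference between 8 and 1 h in PHO84c (vertical axis) against WT (horizontal axis) for the 74 members, purple where a gene name is listed. Both moved up for 31 members and down for 11, while 25 moved up in WT alone and 7 in PHO84c alone. The points far to the right are probes 10621 and 7555.

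The strain difference of this early course, PHO84c minus WT, was called for 2 of 74 members, where 3.16% of all 6068 probes tested were called. They were probe 7555 at -1.93 ± 0.199 (SE, limma adjusted p = 0.00716) and probe 10621 at -1.45 ± 0.168 (adjusted p = 0.00857). At an unadjusted p under 0.05 there were 14 members, or 18.9%, against 26.9% of all probes. Of these 14, 12 were lower in PHO84c and 2 higher, where over all probes the split was 806 lower and 827 higher. PAU6 (-1.13 ± 0.342, limma adjusted p = 0.0907) and RPS23A (-0.75 ± 0.227, adjusted p = 0.0895) were among the 12, as were CLB3, PMU1 and RMA1, none of which passed the threshold. The upward lean of the members in WT rests on 1 array at 1 h and 1 at 8 h. Members share these arrays and are not replicates of it, so nothing is read from the split.

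At single early times the members' change in PHO84c minus that in WT had medians of 0.09, 0.06 and -0.08 at 1, 5 and 8 h. The mean of the 3 is held near 0 by the selection. At 1 h, 10 members (13.5%) were higher in PHO84c by at least 0.5 and 0 lower by as much, against 11.2% and 9.33% of all complete probes. At 5 h, 2 were higher (2.70%) and 4 lower (5.41%), against 5.55% and 5.30%, and at 8 h 1 was higher (1.35%) and 7 lower (9.46%), against 4.44% and 2.94%. The limma fit called 0 members at 1 h, 0 at 5 h and 1 at 8 h, where 2.39%, 0.684% and 0.736% of all probes were called. At an unadjusted p under 0.05 there were 13 members at 1 h, 12 at 5 h and 9 at 8 h (17.6%, 16.2% and 12.2%), against 30.2%, 16.9% and 11.4% of all probes. The call at 8 h was probe 7555, at -1.42 ± 0.172 (SE, limma adjusted p = 0.0142).

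The relation of early to late size among the members was described by correlation. Across the 74 members, Pearson's r between the 1, 5 and 8 h change and the 23 h change was 0.11, -0.12 and -0.00 in PHO84c, and 0.18, 0.01 and -0.22 in WT. Spearman's rho was 0.06, -0.17 and 0.03 in PHO84c, and 0.09, 0.14 and -0.18 in WT. Over the 20 listed members r at the same times was 0.11, -0.13 and -0.06 in PHO84c, and 0.05, 0.53 and -0.10 in WT, with a rho of 0.58 for the WT value at 5 h. For 8 h minus 1 h against the 23 h change, r was -0.08 in PHO84c and -0.25 in WT. These are descriptions over probes that share arrays and, for the first relation, the 0 h samples. Between the strains, 8 h minus 1 h correlated at r = 0.367 over the members and 0.271 over all complete probes. The single-time changes correlated between strains at 0.432, 0.0885 and 0.167 at 1, 5 and 8 h over the members, against 0.523, 0.609 and 0.632 over all complete probes, whose early changes span a wider range.

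Other probes with a late rise were set beside the members. The 137 other probes that reached 3 at 23 h in both strains with the same limit on the strain difference, but with an early mean beyond 0.25 in at least 1 strain, had a median 8 h minus 1 h of 0.11 in PHO84c and 0.31 in WT. Of them 59.9% moved up in PHO84c and 78.1% in WT. A mirror rule for probes strongly low at 23 h alone found 12, with medians of 0.07 in PHO84c and -0.07 in WT. Among the 2778 probes with an early mean within the limit, the median 8 h minus 1 h was also taken by mean 23 h change. The 94 probes with a mean of at least 3 had 0.04 in PHO84c and 0.19 in WT, the 124 probes between 2 and 3 had 0.05 in each strain, and the 312 between 1 and 2 had 0.02 in PHO84c and 0.01 in WT. The 4 groups below 1 had medians between -0.03 and 0.02 in PHO84c and between -0.07 and -0.01 in WT. The first of these groups holds the 74 members, and differences between these groups of probes were not tested.

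**Figure D5:**
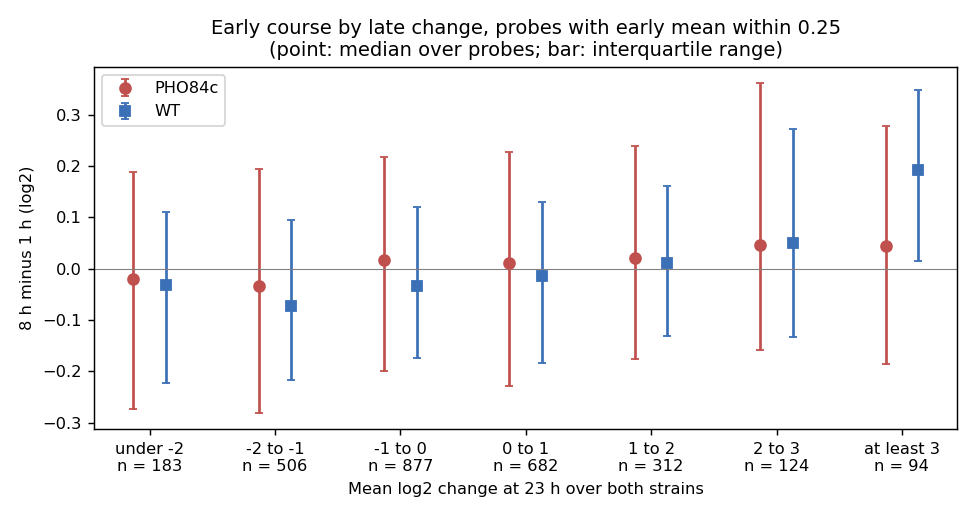
Log2 difference between 8 and 1 h for the 2778 probes with an early mean within 0.25 in both strains, grouped by their mean log2 change at 23 h; circles are PHO84c, squares WT, points medians and bars interquartile ranges over probes. The WT median reaches 0.19 in the group of at least 3, where the PHO84c median is 0.04.

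At 23 h the gene lists to which listed members belong moved in both directions. Counts below are probes called by limma, beside 23.2% higher and 27.5% lower of all probes in PHO84c, and 20.8% and 23.8% in WT, with medians of -0.19 and -0.20. Of the ribosome biogenesis probes, which include RPF1 and NIP7, 9 rose and 7 fell of 31 in PHO84c, and 9 rose and 6 fell of 33 in WT, with medians of -0.26 and 0.02. Among cytosolic ribosomal proteins, 12 rose and 14 fell of 54 in PHO84c, and 10 rose and 11 fell of 53 in WT. RPS23A was thus 1 of 12 and 1 of 10 risers. These shares lie close to those of all probes.

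Glycolysis names, with ADH1, had 3 higher and 3 lower of 9 probes in each strain. ENO1, an enolase, rose by 2.42 in PHO84c and 2.47 in WT, while GLK1, a glucokinase, stood at -2.04 and -2.07. Respiratory chain names, with COX8, had 3 higher and 4 lower of 11 in PHO84c and of 12 in WT. ATP1, a subunit of the mitochondrial ATP synthase, rose by 5.32 and 4.99, and NDE1, an external NADH dehydrogenase, stood at -3.59 and -2.98. Both lists thus held strongly higher and strongly lower probes at 23 h.

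In the list of hypoxic and PAU genes, with PAU6, 6 rose and 2 fell of 9 in PHO84c (66.7% higher), and 5 rose and 2 fell of 9 in WT (55.6%). PAU4 rose by 2.28 in PHO84c and 2.38 in WT, and DAN1, another anaerobic cell wall protein, by 2.32 and 1.85. ECM22, a regulator of sterol synthesis genes, fell, at -2.28 and -1.88, and PAU2, of the same family as PAU6, stood at 0.20 and -0.21. Metal ion transport, with SMF3, had 3 higher and 3 lower of 10 in PHO84c and 4 and 3 in WT. FET4, a low-affinity iron importer, led it at 7.93 and 7.77. For the iron regulon, which also holds SMF3, 2 rose and 2 fell of 11 in PHO84c, and 3 rose and 4 fell in WT. Phospholipid synthesis, with EPT1, had 4 higher and 2 lower of 12 in PHO84c and 5 and 2 in WT.

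The other 12 lists held none of the 20 listed members, and the 54 unnamed members could not be matched to any list. Of the PHO regulon, 1 of 6 probes rose and 2 fell in PHO84c, and 1 of 7 rose and 0 fell in WT. The riser was VTC4, a polyphosphate polymerase subunit, at 1.85 in each strain. General stress names had 0 of 11 higher, with 4 lower in PHO84c and 3 in WT. Gluconeogenesis and glyoxylate names had 1 higher and 5 lower of 9 in each strain, and autophagy names 4 higher in PHO84c and 3 in WT, with 0 lower, of 7. Amino acid biosynthesis had 8 higher and 4 lower of 21 in PHO84c and 5 and 2 in WT, and peroxisomal beta-oxidation 3 and 1 of 8 in PHO84c and 4 and 1 of 9 in WT. Sporulation names had 1 higher and 6 lower of 18 in PHO84c and 2 and 8 in WT. Reserve carbohydrates had 0 higher of 8, with 2 lower in PHO84c and 1 in WT, and hexose transport had 2 lower of 6 in each strain, with 0 higher in PHO84c and 1 in WT. The tricarboxylic acid cycle had 1 higher of 6 in each strain, with 0 lower in PHO84c and 1 in WT. Nitrogen catabolite repression had 3 higher of 12 in each strain, with 4 lower in PHO84c and 2 in WT, and the proteasome 2 lower of 11 in each strain, with 3 higher in PHO84c and 2 in WT. The lowest list median was that of gluconeogenesis and the glyoxylate cycle, at -1.77 in PHO84c and -1.41 in WT. General stress followed at -0.97 and -0.80. The highest of these 12 was autophagy at 1.38 in PHO84c and peroxisomal beta-oxidation at 0.73 in WT, where autophagy had 0.67.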

How the data were processed

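The authors deposited a table of log2 ratios, which was the only data file used. RNA extracted with MasterPure reagents was amplified, labelled with Agilent reagents, hybridised to dual-colour yeast arrays and read with SpotReader, per the labels' protocols. How background was corrected and values normalized is not given in the sources used here. Log base and reference were inferred from the values: the median probe of the WT Cy3 pair at 0 h averages 1.00 on the linear scale, so values appear to be relative to samples at 0 h within a strain and dye. The labels give no signal level, and the number of arrays limits the precision. Depth per sample was 6125 to 6231 probes with a value, and 0 columns belonged to other series. A treatment tag gives the phosphate in another unit than the protocol and titles, which were followed.

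All probes entered limma 3.58.1 (R 4.3.3) fits with Benjamini-Hochberg adjustment, and a call needed an adjusted p under 0.05 and 2-fold. The 16-sample fit had a mean per strain and time, a dye term per strain and the array as random block (correlation 0.768, 4 residual degrees of freedom). The 6-sample fit had strain and time as terms. Fits used exact least squares per pattern of missing values and were tested on simulated data. No label says that samples at 0 h came from separate cultures, so p-values of the 16-sample fit measure the spread between these samples. Those of the 6-sample fit measure how the strains differ across the early times, with 1 sample per strain and time. All 1607 listed names were found in the R64 reference table, used for names alone. Probes with the same name were kept apart. Named are all 20 listed members, 2 unnamed ones by largest 23 h change, the nearest probes at each limit and up to 4 genes a list. Members, the 20 gene lists and tests were chosen with earlier results of these data known. No sequences of probes or genes were used here. Alternatives covered the 0 h baseline, centring, quantile normalization, selection limits, block, dye term and left-out samples.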

Additional observations from a re-analysis of the deposited data

Results flagged for a closer look

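The early course from 1 to 8 h differed between the strains by a test of the difference itself for 2 of 74 members. Of all probes, 3.16% were called. The limit on the early mean narrows early differences among the members, so these shares come from unlike sets and nothing is read from their comparison. Probe 7555 had a PHO84c minus WT difference of -1.93 and probe 10621 one of -1.45 (limma adjusted p = 0.00716 and 0.00857). Probe 7555 also differed at 8 h alone, by -1.42 (limma adjusted p = 0.0142). These calls compare 1 array per strain and time, and array and strain cannot be told apart. Among 48 groups of 4 samples at 0 h, examined for the 24 members named, none was flagged for an outlier. Values at 0 h appear to be scaled on themselves within a strain and dye, so the 2 samples of a dye nearly mirror each other. A single sample could then hardly stand apart, and nothing is read from this.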

How the results depend on the processing

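The number of members depended on the limits and on scaling. It was 143 with an early limit of 0.5, 13 with the limit of 0.25 applied to each early time, 184 with a 23 h limit of 2, and 0 after quantile normalization, which gives all samples the same spread and so removes the wide range at 23 h. It was 62 and 63 without 0 h replicate 1 or 2, of which 54 and 51 were among the 74, and 82 with each sample centred on its median, of which 72 were. The members' median 8 h minus 1 h was examined under the same selections, an alternative added after the values were seen. In WT it was 0.0127 for the 13 probes with each early time within 0.25, a limit that itself confines the difference, and 0.13 to 0.20 under the others. In PHO84c it was 0.0938 for those 13 and 0.0391 and 0.11 without 0 h replicate 1 or 2.

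For the early differences over both strains, the 16-sample limma fit called 58, 33 and 15 probes (8 h minus 1 h, 5 h minus 1 h, 8 h minus 5 h) against 17, 3 and 2, and 1, 1 and 0 members against 0, the member being probe 7555. The 8 later samples gave 4, 0 and 1 probes, and quantile normalization 11 and 0 for the first and last, where 310 probes had an unadjusted p under 0.05 for the last in the reported fit. The cause of these changes was not tested. The 8 h minus 1 h value of probe 2468 over both strains, not called, was -0.04 as deposited and 0.00510 after quantile normalization. Under median centring, calls at 23 h numbered 1645 higher against 1402 lower in PHO84c and 1512 against 1203 in WT, while as deposited they numbered 1421 against 1690 and 1292 against 1477. No paired analysis was possible because the labels give replicate numbers at 0 h alone, and the 0 h samples of a strain are scaled on themselves. The strain term of the 6-sample fit sets times against each other within a strain.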
